A study of Mus musculus with 16 samples.

Results

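RNA-Seq of splenic B-cell subsets from Mir-146a-/- (KO) and wild-type (WT) mice was examined for 4 genes of the complement system that act on the B-cell surface, namely Cr2, Cr1l, Cd55 and Cd59a. The members were taken by gene symbol, and Cr2 was listed in 2 rows, so the 4 genes gave 5 rows of 38355 in the table. All 5 rows passed the filter for testing, a mean above 1 RPKM (reads per kilobase of exon, scaled to the mapped reads of the library) in at least 1 group, as did 12507 rows in all. The study compared transitional 1 (T1), transitional 2 (T2), marginal zone (MZ) and follicular (FO) B-cells of KO mice with the same 4 subsets of WT mice, with 2 replicates in each of the 8 groups and 16 libraries in all. All mice were on the C57BL/6 background, and the labels give neither age nor sex for the sorted animals. KO mice lacked miR-146a in every cell rather than in B-cells alone, and each sample was sorted from the pooled spleens of several mice. The sort used surface CD23, AA4, IgM and CD21. T1 cells were CD23- AA4+ IgM high with little or no CD21, T2 cells were CD23+ AA4+ IgM high CD21 low, FO cells were CD23+ AA4- IgM low with intermediate CD21, and MZ cells were CD23- AA4- IgM high CD21 high. CD21 is a product of Cr2, so differences in Cr2 between subsets follow from the gates and are given as a description.

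Complement is a cascade of plasma proteins in which activated C3 attaches to microbes, immune complexes and, at a low rate, the host's own cells. B-cells read the attached C3 fragments through CD21 and CD35, both made from Cr2 in the mouse by alternative splicing, and CD21 lowers the threshold of the B-cell receptor. Host cells are shielded by regulators. In the mouse, Crry (the product of Cr1l) and CD55 (decay accelerating factor) act on the C3 convertases, and CD59 blocks the last step, the insertion of C9 into the membrane. MZ B-cells are known for high CD21 and for carrying complement-coated antigen to the follicle.

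Library totals ranged from 9003343 to 26386684 reads, so the RPKM value of 1 read differs between libraries, and it is larger for a shorter transcript. Counts under about 10 reads carry large counting error. Mir146, the targeted gene on chromosome 11, had 1 read in each WT FO library and 0 in the other 14, so these libraries could not check the genotype labels. The gates could be checked against their genes. Fcer2a, which encodes CD23, ranged from 604 to 712 RPKM in T2 and from 622 to 751 RPKM in FO, against 30.2 to 56.4 RPKM in T1 and 6.74 to 23.2 RPKM in MZ. Cd93, which encodes AA4, ranged from 26.6 to 36.4 RPKM in T1 and from 6.66 to 15.4 RPKM in T2, with at most 2.55 RPKM in FO and 0.356 RPKM in MZ. For Ighm, which encodes IgM, the MZ range of 4007 to 5139 RPKM lay above the FO range of 3556 to 3978 RPKM. Its T1 range of 11200 to 35990 RPKM does not check the gate on its own, because markers of plasma cells, which secrete IgM, were also high there. The 5 plasma cell markers, none at 0 in any library, summed to 686 to 4160 RPKM in T1, against 91.5 to 224 RPKM in the other 12 libraries, and Igj, the J chain gene, averaged 2063 RPKM in T1. Irf4, another of the 5, did not follow, with a mean of 124 RPKM in T1 and 131 RPKM in MZ. Prdm1, also of the 5, was not high in T1 alone. It averaged 6.39 RPKM in T1 and 5.17 RPKM in MZ, against 0.713 RPKM in T2 and 0.579 RPKM in FO. The 5 B-cell markers summed to 3606 to 6233 RPKM over all libraries. Macrophage markers (9 genes, 3 of them C1q genes) summed to 7.38 to 48.3 RPKM, neutrophil markers (6 genes) to 0.723 to 66.3 RPKM, T-cell markers to at most 13.6 RPKM, erythroid markers to at most 7.30 RPKM, and platelet and stromal markers to under 1 RPKM each. All 5 tested neutrophil markers had log2 fold changes above 0 in KO against WT in every subset, with medians of 0.71 to 1.86, and none was called. KO replicate 1 stood apart in every subset, with the lowest Fos, Jun and Egr1 of its 4 libraries. These immediate early genes, which cells induce within minutes of stimulation, were looked at after their values had been seen. Fos had 4.03 RPKM in KO MZ replicate 1 and 333 RPKM in KO MZ replicate 2, against 663 and 192 RPKM in the WT MZ libraries. The Cd59a and Cd59b values that involve KO MZ are given with and without KO MZ replicate 1 below.

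The start regions of the genes are shown first because the members differ in what precedes them, and because Cd55 and Cd59a each have a neighbouring paralog that is compared with them later. The sequences are from RefSeq (GRCm38.p6), run 5′ to 3′ on the gene's strand, and cover 250 bases before the start and 50 bases after it. On GENCODE M21 (GRCm38), Cr1l (chr1:195097382-195131586) and Cr2 (chr1:195136811-195176716) lie side by side on the minus strand, 5.22 kb apart. Cd55 (chr1:130439027-130462744) lies 16017 bases from Cd55b (chr1:130388537-130423009) on the same strand, and Cd59a (chr2:104095801-104115354, plus strand) lies 4.61 kb from Cd59b (chr2:104069849-104091187). Cr2 is shown because it is the only one of the 4 members whose window holds GTGGGAA, the letters read by RBPJ, the DNA-binding partner of Notch. Capitals mark that match, in chr1:195176670-195176969.
Cr2: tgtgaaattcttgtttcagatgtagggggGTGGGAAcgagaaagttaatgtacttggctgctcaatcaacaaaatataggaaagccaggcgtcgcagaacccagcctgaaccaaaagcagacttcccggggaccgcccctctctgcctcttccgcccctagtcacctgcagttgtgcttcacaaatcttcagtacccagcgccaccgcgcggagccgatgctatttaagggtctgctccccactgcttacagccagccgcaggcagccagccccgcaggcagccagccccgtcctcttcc
Cd55 (chr1:130462695-130462994) and Cd55b (chr1:130422994-130423293) are shown as a pair because their levels moved alike. Capitals mark CCGCCC, the GC box GGGCGG read on the other strand.
Cd55: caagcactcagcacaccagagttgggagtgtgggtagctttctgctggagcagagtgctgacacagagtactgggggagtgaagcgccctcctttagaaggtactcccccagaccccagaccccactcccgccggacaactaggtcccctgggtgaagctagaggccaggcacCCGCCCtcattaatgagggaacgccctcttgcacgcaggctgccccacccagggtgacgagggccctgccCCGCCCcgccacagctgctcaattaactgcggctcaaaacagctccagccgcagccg
Cd55b: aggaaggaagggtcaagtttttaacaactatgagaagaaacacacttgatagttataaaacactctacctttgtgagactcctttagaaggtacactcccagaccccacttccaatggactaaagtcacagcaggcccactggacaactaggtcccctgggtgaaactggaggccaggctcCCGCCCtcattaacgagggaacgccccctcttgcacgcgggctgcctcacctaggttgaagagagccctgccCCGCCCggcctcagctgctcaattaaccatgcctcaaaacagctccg
Cd59a (chr2:104095551-104095850) is shown because it was the member nearly confined to 1 subset. Capitals mark GGGTGTGG, the CACCC box CCACACCC read on the other strand.
Cd59a: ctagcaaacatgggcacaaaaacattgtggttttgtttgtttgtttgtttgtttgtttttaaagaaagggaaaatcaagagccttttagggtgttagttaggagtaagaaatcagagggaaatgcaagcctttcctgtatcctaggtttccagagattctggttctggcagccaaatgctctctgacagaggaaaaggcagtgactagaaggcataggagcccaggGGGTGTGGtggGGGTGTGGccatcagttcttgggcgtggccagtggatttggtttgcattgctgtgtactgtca

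The Cd55 and Cd55b windows aligned with 213 identical bases over 323 columns (65.9%), and each held the GC box at 2 places. The Cd59a and Cd59b windows shared 142 identical bases over 315 columns (45.1%). That is near the value of the Cr2 and Cr1l windows, with 130 identical bases over 323 columns (40.2%). The Cd59b window (chr2:104070816-104071115) lies inside the GENCODE gene, which starts at base 104069849. Both strands of each window were searched for 5 motifs, which were chosen with these data known and do not overlap each other in the members. GTGGGAA was found in 6.38% of all 32851 windows of the same length, GGGCGG in 35.7%, the E box CAGGTG in 20.2% and CCACACCC in 3.56%. An NF-kB motif (GGGA, any 2 bases, then TTCC) was in 1.47% of all windows and in no member's window. Cr2 held GTGGGAA from base -221 to -215, with GGGCGG at 2 places and CAGGTG at 1. Cd59a held CCACACCC at 2 places, from base -24 to -17 and from base -13 to -6. A match is a description of these letters and not evidence of binding.

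Cr2 had the widest range of the members, and its level followed the CD21 gates. In T1 its main row (ENSMUSG00000026616) had 24.2 and 29.4 RPKM in KO and 19.3 and 28.4 RPKM in WT libraries. In T2 it had 157 and 170 RPKM in KO and 140 and 155 RPKM in WT libraries. In MZ it had 974 and 723 RPKM in KO and 767 and 852 RPKM in WT libraries. FO lay between T2 and MZ, with 215 and 199 RPKM in KO and 160 and 222 RPKM in WT libraries. The T1, T2 and MZ libraries did not overlap each other, whereas the lowest FO library lay within the T2 range. As a description, the MZ mean was 829 ± 110 RPKM (SD, n = 4, both genotypes), against 199 ± 27.5 in FO, 156 ± 12.3 in T2 and 25.3 ± 4.62 in T1. On the scale used for testing, log2(RPKM + 0.5), Cr2 was 2.36 ± 0.21 (SE) higher in MZ than in T2 in KO and 2.45 ± 0.21 higher in WT. T2 was 2.59 ± 0.21 above T1 in KO and 2.63 ± 0.21 above T1 in WT on that scale. FO against T2 gave 0.34 ± 0.21 in KO and 0.35 ± 0.21 in WT. In these bulk samples, here and below, fewer cells with a transcript and less transcript per cell cannot be told apart.

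The second Cr2 row (ENSMUSG00000094924), whose RPKM values rest on a length of 1044 bases against 6207 bases for the main row, is absent from GENCODE M21, so its position is not given. It followed the main row over the 16 libraries (Pearson's r = 0.997 on the log2 scale, a description). Its values in MZ were 717 and 578 RPKM in KO and 637 and 679 RPKM in WT libraries. In T2 they were 81.2 and 91.7 RPKM in KO and 80.8 and 89.2 RPKM in WT libraries. The proportion between the rows is a separate measure that the sort did not use directly. The RPKM of the second row was 0.736 and 0.799 of that of the main row in KO MZ and 0.829 and 0.797 in WT MZ libraries. In T2 it was 0.519 and 0.538 of the main row in KO and 0.575 and 0.574 in WT libraries. In FO it was 0.580 and 0.606 in KO and 0.613 and 0.624 in WT libraries, and in T1 0.534 to 0.594 over the 4 libraries. All 4 MZ libraries thus stood above all 12 others, and the FO libraries stood just above T2. Over both genotypes, the log2 ratio was 0.52 higher in MZ than in T2 and 0.38 higher in MZ than in FO. FO exceeded T2 by 0.14, and T2 differed from T1 by -0.01. The exact two-sided permutation test gave p = 0.0286 for the first 3 of these, the smallest that 4 libraries against 4 allow, and p = 1 for T2 against T1, or 0.0381 and 1 after Benjamini-Hochberg adjustment over the 4 comparisons. The test pooled KO and WT libraries. Both KO ratios lay below both WT ratios in T2 and in FO, and the genotypes overlapped in T1 and MZ. Both rows belong to the sort marker gene, and how far the gates set the ratio was not tested. Whether the rows overlap, and whether they count the same reads, is not stated in the sources used here.

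**Figure D1:**
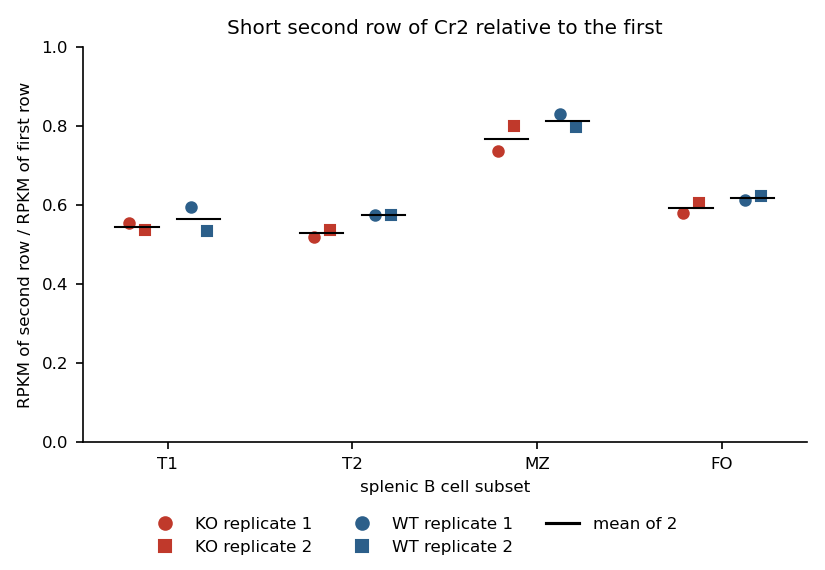
RPKM of the second Cr2 row divided by that of the main row (y axis) in each library, with KO left of WT within a subset, circles for replicate 1, squares for replicate 2 and lines for the mean of 2. The MZ libraries sit between 0.736 and 0.829, above the 0.519 to 0.624 of all other libraries.

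**Figure D2:**
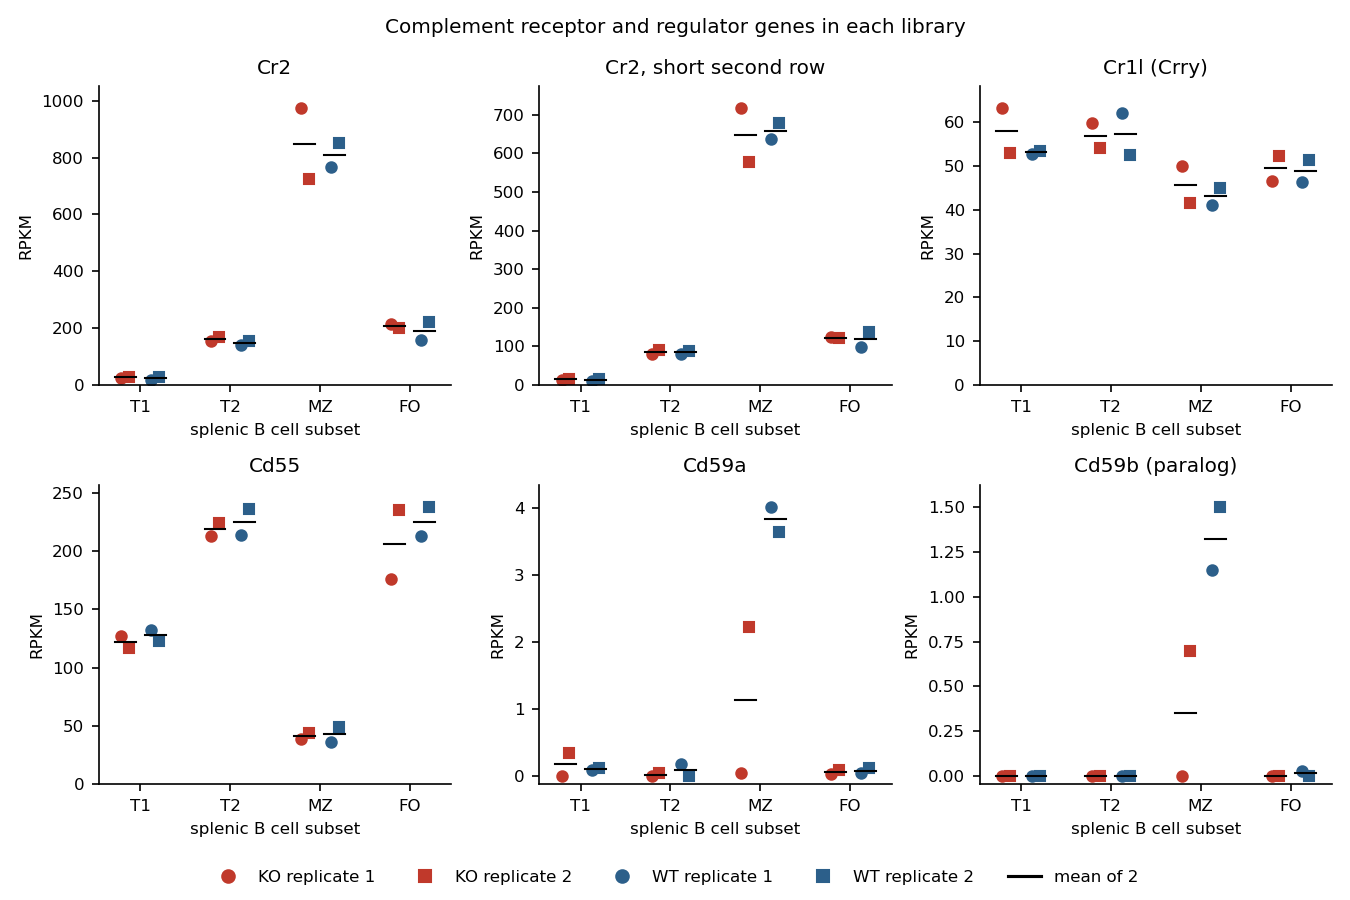
RPKM (y axis) of each member, of the second Cr2 row and of Cd59b in the 16 libraries, with KO left of WT within each subset, circles for replicate 1, squares for replicate 2 and black lines for the mean of 2. Cr2 reached 723 to 974 RPKM in MZ, Cd55 was at 35.7 to 49.4 RPKM there against 213 to 236 RPKM in T2, and Cd59a was above 2 RPKM in 3 of the 4 MZ libraries only.

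Cr1l, which encodes Crry, the regulator that mouse cells use most widely against C3 deposition, was the most even member. Its values over the 16 libraries ran from 41.2 to 63.2 RPKM. In MZ it had 49.9 and 41.5 RPKM in KO and 41.2 and 44.9 RPKM in WT libraries. In T2 it had 59.8 and 54.0 RPKM in KO and 62.0 and 52.4 RPKM in WT libraries. The MZ libraries lay below the T2 libraries without overlap in both genotypes, and the subsets ordered as T2 (57.0 ± 4.57, SD, n = 4), T1 (55.5 ± 5.09), FO (49.1 ± 3.11) and MZ (44.4 ± 4.07 RPKM). Neighbours in this order differed by no more than about the sum of their SDs. MZ against T2 gave -0.32 ± 0.13 on the log2 scale in KO (limma, adjusted p = 0.101) and -0.40 ± 0.13 in WT (adjusted p = 0.0378). The WT change passed on adjusted p alone and missed the fold criterion, and in that comparison 24.9% of all tested genes passed on adjusted p alone in KO and 28.8% in WT. No other comparison of Cr1l passed on adjusted p. The level of Cr1l depends on the length used, 1661 bases in the deposited values against 10349 bases of exon in GENCODE M21, whereas its differences between libraries do not.

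Cd55 was the regulator with the largest fall. In MZ it had 38.5 and 43.4 RPKM in KO and 35.7 and 49.4 RPKM in WT libraries. In T2 it had 213 and 224 RPKM in KO and 213 and 236 RPKM in WT libraries. FO resembled T2, with 176 and 235 RPKM in KO and 213 and 238 RPKM in WT libraries. T1 stood between, with 127 and 117 RPKM in KO and 132 and 123 RPKM in WT libraries. The 4 MZ libraries, the 4 T1 libraries and the 8 T2 and FO libraries formed 3 ranges with no overlap. The order by mean was T2 (222 ± 10.9), FO (216 ± 28.4), T1 (125 ± 6.49) and MZ (41.8 ± 6.00 RPKM, SD, n = 4 each), and T2 and FO did not differ beyond their spread.

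Cd55 fell in MZ against T2 by 2.40 ± 0.17 on the log2 scale in KO (limma, adjusted p = 4.61e-06) and by 2.40 ± 0.17 in WT (adjusted p = 4.46e-06). The MZ mean was 0.187 times the T2 mean in KO and 0.189 times in WT. Cd55 was likewise lower in MZ than in FO, by -2.30 ± 0.17 in KO (adjusted p = 6.27e-06) and -2.41 ± 0.17 in WT (adjusted p = 4.33e-06). These calls held under every alternative run. T2 against T1 gave 0.84 ± 0.17 in KO (adjusted p = 0.00935) and 0.81 ± 0.17 in WT (adjusted p = 0.0113), which missed the criterion of a log2 fold change beyond 1. Under quantile normalization the same values were 1.02 in KO and 1.03 in WT, and both were then called. On adjusted p alone, 11.7% of tested genes passed in T2 against T1 in each genotype. The plasma cell markers summed to 114 to 222 RPKM in T2 against 686 to 4160 RPKM in T1. Igj made up most of the T1 sum, with a mean of 2063 RPKM, whereas Irf4 averaged 124 RPKM in T1 and 110 RPKM in T2. In T2 against T1, all 5 lay below 0 in WT and 4 of 5 in KO. The part of these markers in the T1 values of the members was not tested. FO against T2 gave -0.10 ± 0.17 in KO and 0.00 ± 0.17 in WT.

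The paralog Cd55b, which in the mouse is described as a second decay accelerating factor gene, was not tested because its mean stayed under 1 RPKM in every group. It had 3 to 6 reads per MZ library and 20 to 31 reads per FO library. Like Cd55, it was lowest in MZ and next in T1, with 0.153 RPKM in MZ, 0.333 RPKM in T1, 0.611 RPKM in T2 and 0.618 RPKM in FO as means of 4 libraries. Reads of Cd55b made up 0.122% of the reads of both genes in MZ (17 reads beside 13897 of Cd55, exact 95% interval 0.0712 to 0.196%), 0.0992% in FO (0.0808 to 0.121%), 0.0911% in T2 (0.0672 to 0.121%) and 0.0890% in T1 (0.0591 to 0.129%). The intervals, which cover counting error only, overlap. Of all 100-base windows in the transcripts of Cd55b, 12.2% occur letter for letter in Cd55, as do 4.19% of the Cd55 windows in Cd55b. The values of Cd55b are therefore uncertain, and how many of its reads came from Cd55 was not tested.

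Cd59a, the CD59 gene that most mouse tissues use, was found almost only in MZ. In MZ it had 0.0409 and 2.23 RPKM in KO and 4.03 and 3.65 RPKM in WT libraries, which are 1 and 71 reads in KO and 132 and 125 reads in WT. In T2 it had 0 and 0.0393 RPKM in KO and 0.184 and 0 RPKM in WT libraries. In T1 it had 0 and 0.344 RPKM in KO and 0.0880 and 0.119 RPKM in WT libraries. In FO it had 0.0247 and 0.0891 RPKM in KO and 0.0419 and 0.118 RPKM in WT libraries. The 12 libraries outside MZ held 30 reads in all, with at most 9 in a library, against 329 reads in the 4 MZ libraries. The gene passed the filter for testing only through the MZ groups, where it is high. Both WT MZ libraries and KO MZ replicate 2 stood above every other library, whereas KO MZ replicate 1 lay within the range of T1, T2 and FO.

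In WT, Cd59a rose in MZ against T2 by 2.89 ± 0.58 on the log2 scale (limma, adjusted p = 0.00386) and against FO by 2.91 ± 0.58 (adjusted p = 0.00455). The pseudocount shrinks these values. Scaled to the library totals, the ratio of reads was 52.4 for WT MZ against WT T2 (257 against 3 reads, 95% interval 17.7 to 256, counting error only) and 49.5 against WT FO (23.7 to 124). In KO, MZ against T2 gave 1.23 ± 0.58 (adjusted p = 0.154) and MZ against FO 1.13 ± 0.58 (adjusted p = 0.197), and neither was called. Without KO MZ replicate 1, these values were 2.39 (adjusted p = 0.00216) and 2.30 (adjusted p = 0.00293), and both were called, with the lone KO MZ library assumed to vary like the other groups. The difference in the MZ against T2 change between the genotypes was -1.66 ± 0.82 (KO minus WT, limma, adjusted p = 1), so the genotypes were not shown to differ in it. Without KO MZ replicate 1 it was -0.50 (adjusted p = 1).

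The paralog Cd59b followed Cd59a. It had 0 and 16 reads in the KO MZ libraries and 27 and 37 reads in the WT MZ libraries, and 1 read over the 12 libraries outside MZ. In MZ against T2 it gave 0.63 ± 0.36 in KO (limma, adjusted p = 0.237) and rose by 1.86 ± 0.36 in WT (adjusted p = 0.00320). Cd59b was tested only because its mean in WT MZ was above 1 RPKM (1.33 RPKM, against 0.350 RPKM in KO MZ), so the group where it is high admitted it to the test. Without KO MZ replicate 1, its KO value was 1.26 (adjusted p = 0.0192), which stayed uncalled because the lone KO MZ library was under 1 RPKM. KO against WT in MZ gave -1.23 ± 0.36 for Cd59b (adjusted p = 1) with all libraries and -0.60 (adjusted p = 1) without KO MZ replicate 1. Scaled to the library totals, WT MZ against WT T2 (64 against 0 reads) had a lower 95% limit of 10.3-fold, counting error only. With the WT T2 libraries, all at 0, set at a floor of 3 reads over the group, the ratio was about 13-fold. That value depends on the floor chosen and is not a lower bound. Only 5 of 1811 windows of 100 bases in the Cd59a transcripts (0.276%) occur letter for letter in those of Cd59b. Windows with up to 2 mismatches, which the aligner allowed, were not counted, so how many reads the genes could share was not tested. Like Cd59a, Cd59b was low in KO MZ replicate 1, and so was Plau, the urokinase gene, which had 1.39 RPKM there against 5.27 RPKM in KO MZ replicate 2 and 5.76 and 4.22 RPKM in the WT MZ libraries. Jun had 2.37 RPKM in KO MZ replicate 1, 178 RPKM in KO MZ replicate 2 and 381 and 105 RPKM in WT MZ libraries. That library held 13503388 reads, the fewest of the MZ libraries, against 17582979 in KO MZ replicate 2. The part of the immediate early genes in the Cd59a values was not tested.

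**Figure D3:**
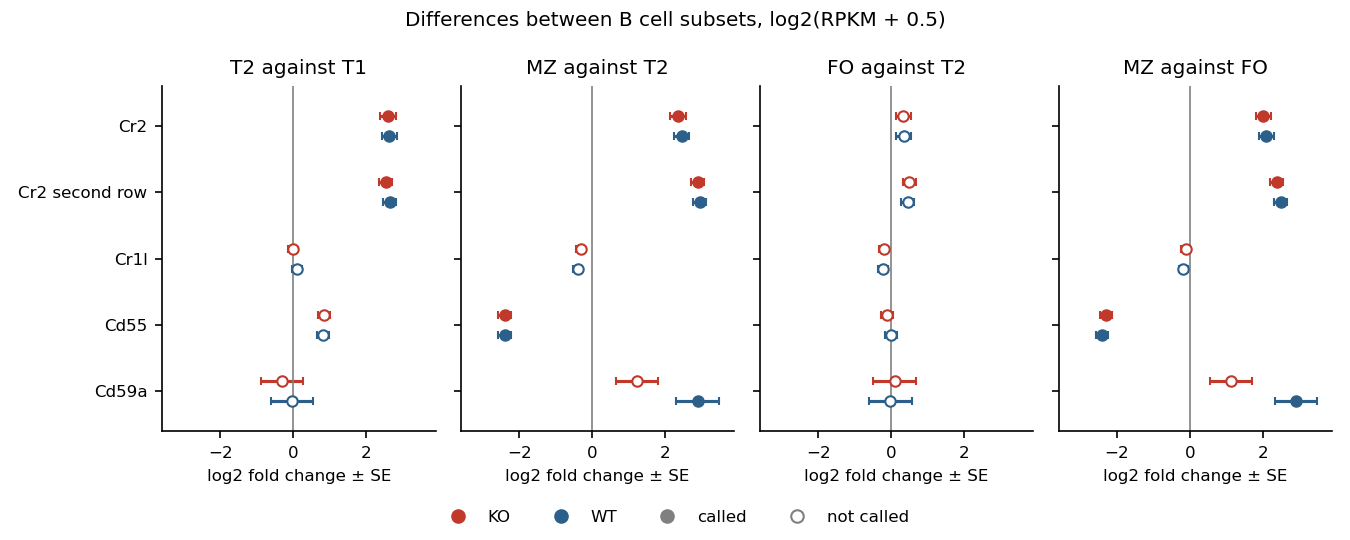
Log2 fold change (x axis, with its SE) of each member row in 4 comparisons between subsets, with KO above WT and filled points for called rows. Cr2 and Cd55 moved in opposite directions in MZ against T2 in both genotypes (2.36 and -2.40 in KO, 2.45 and -2.40 in WT), and Cd59a was called in WT (2.89) and not in KO (1.23).

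Across the comparisons between subsets, the calls are best read against the share of all tested genes that were called, at an adjusted p under 0.05 and a log2 fold change beyond 1. In MZ against T2, 3 of the 5 member rows were called in KO, against 9.44% of all tested genes, and 4 of 5 in WT, against 10.6%. Both Cr2 rows are among them, and so is Cd59a in WT, which only MZ admitted to the test. In MZ against FO, 3 of 5 were called in KO (8.32% of tested genes) and 4 of 5 in WT (8.40%). In T2 against T1 the 2 Cr2 rows were called in each genotype, where 4.37% of tested genes were called in KO and 4.24% in WT. In FO against T2, limma called no member row, where 0% of tested genes were called in KO and 0.184% in WT. The second Cr2 row had an unadjusted p under 0.05 (limma) in both genotypes there, as did 1498 of all 12507 tested genes in KO and 2613 in WT. Limma-voom on recovered reads also called 0 member rows there. With Cr2 being a sort marker, the calls of genes not used in the sort are those of Cd55 in both genotypes and of Cd59a in WT alone. How far the gates set these calls was not tested. MZ against T2 and MZ against FO share the MZ libraries.

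In KO against WT, no member passed the threshold in any subset. The question asked of these contrasts is whether the KO changed a subset's own expression. For Cr2 they cannot answer it, because cells of both genotypes were sorted by gates on CD21, its product. The same limit holds for the genotype difference in the change of Cr2 between subsets. In KO against WT, 0.040% of all tested genes were called in T1, 0.048% in T2, 0.064% in MZ, 0.032% in FO and 0.072% in the mean over the 4 subsets. Limma called 0 of the 5 member rows in each of these, and limma-voom also called 0. The only unadjusted p under 0.05 by limma was that of Cd59a in MZ, where 206 of all 12507 tested genes had one. For Cr2, as a description, the fitted KO over WT ratio lay between 1.04 in MZ (95% interval 0.751 to 1.43) and 1.14 in T1 (0.823 to 1.57). For Cr1l it was 1.09 in T1 (0.893 to 1.32), 0.996 in T2 (0.818 to 1.21), 1.06 in MZ (0.869 to 1.29) and 1.01 in FO (0.832 to 1.23). For Cd55 it was 0.957 in T1 (0.742 to 1.23), 0.973 in T2 (0.755 to 1.26), 0.973 in MZ (0.755 to 1.25) and 0.907 in FO (0.703 to 1.17). Over the 4 subsets, the intervals of Cd55 reached down to 0.703 and up to 1.26, so changes within those bounds are not excluded. The bounds are not a detection limit, because a call also needed a log2 fold change beyond 1.

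For Cd59a, KO against WT in MZ gave -1.83 ± 0.58 on the log2 scale (limma, adjusted p = 1 over all tested genes, unadjusted p under 0.05). Both KO MZ libraries lay below both WT MZ libraries, at 0.0409 and 2.23 RPKM in KO against 4.03 and 3.65 RPKM in WT. Scaled to the library totals, KO MZ replicate 2 had 0.581 times the level of the WT MZ libraries (95% interval 0.441 to 0.759, counting error only) and KO MZ replicate 1 had 0.0107 times that level (0.000269 to 0.0599). The 2 KO libraries thus differed more from each other than KO MZ replicate 2 did from WT. Without KO MZ replicate 1 the difference was -0.67 (adjusted p = 1) and was not called. Without KO MZ replicate 2 it was -3.00 (adjusted p = 0.0194) and was called, but it then compared only KO MZ replicate 1, the library that stood apart, with WT. In both, the lone KO MZ library is assumed to vary like the other groups. It was not called without either WT MZ library. The 6 neutrophil markers summed to 20.02 and 31.97 RPKM in the KO MZ libraries, against 5.23 and 8.79 RPKM in the WT MZ libraries, with Ly6g, a defining one, at 0 in all 4, and their part in this difference was not tested. For the genotype difference in the change between subsets, 0.008% of tested genes were called for MZ against T2 and 0.008% for FO against T2, and 0 of 5 member rows by limma or by limma-voom, with 0 at an unadjusted p under 0.05. Of all 12507 tested genes, 208 had such a p for MZ against T2 and 123 for FO against T2. For Cd55 the difference in the MZ against T2 change was 0.00 ± 0.23 (95% interval -0.52 to 0.52).

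**Figure D4:**
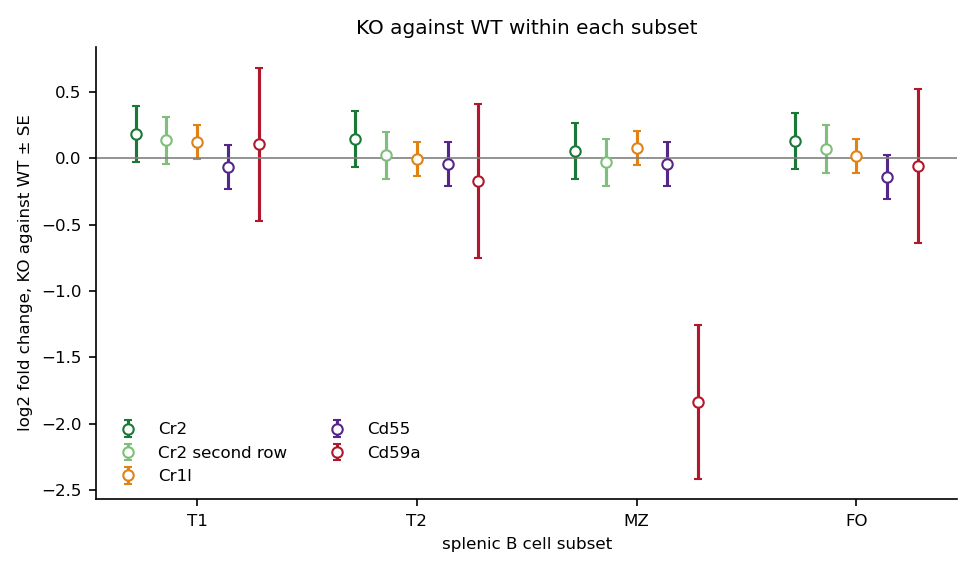
Log2 fold change of KO against WT (y axis, with its SE) of each member row in the 4 subsets, all open because none was called. Cr2, Cr1l and Cd55 lay between -0.14 and 0.19 in every subset, and Cd59a in MZ lay at -1.83.

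The rest of the pathway was counted from lists of 26 components, 10 other receptors, 13 other regulators and 8 membrane and signalling partners of CD21, of which 56 genes were in the table and 22 were tested. Most complement genes were at or near 0 in these cells. Of the 56 genes, 7 were at 0 in every library and 34 stayed under 1 RPKM in every library, C3 among them with at most 0.968 RPKM. KO against WT called none of the 22 tested genes in any subset by limma, where 0.032 to 0.064% of all tested genes were called. Unadjusted p under 0.05 (limma) was reached by Itgax in T1, by Cd59b in MZ and by Ifitm3 over the 4 subsets. Of all 12507 tested genes, 439 reached it in T1, 206 in MZ and 998 over the 4 subsets.

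Among 6 tested components, Cfp was the one that was called. Cfp encodes properdin, which stabilizes the C3 convertase of the alternative pathway. It ranged from 43.5 to 74.1 RPKM in MZ and from 11.7 to 15.5 RPKM in FO, with 30.8 to 40.0 RPKM in T2 and 65.3 to 92.5 RPKM in T1. It was 1.86 ± 0.22 higher on the log2 scale in MZ than in FO in KO (limma, adjusted p = 0.000149) and 2.30 ± 0.22 higher in WT (adjusted p = 3.26e-05). In WT it was also called lower in FO than in T2, by -1.41 ± 0.22 (adjusted p = 0.0384), and lower in T2 than in T1, by -1.12 ± 0.22 (adjusted p = 0.00894). In KO neither change was called, although Cfp also fell there. It had 71.1 and 65.3 RPKM in KO T1, 38.8 and 30.8 RPKM in KO T2 and 14.1 and 14.7 RPKM in KO FO libraries. Of all tested genes, 8.32% in KO and 8.40% in WT were called in MZ against FO. In WT, 0.184% were called in FO against T2 and 4.24% in T2 against T1, and in KO 0% and 4.37%. The median of the 6 components in MZ against FO was 0.96 in KO and 0.60 in WT, beside 0.04 and 0.03 over all tested genes. C1qa, C1qb, C1qc (the subunits of C1q) and Fcna (ficolin A) were highest in T2, where C1qa ranged from 2.08 to 6.29 RPKM, against 0.531 to 2.79 RPKM in MZ. The 6 macrophage markers other than the C1q genes also had their highest sum in T2, with 15.6 to 31.8 RPKM, against 13.6 to 20.5 RPKM in MZ, 7.19 to 10.3 RPKM in FO and 7.33 to 21.2 RPKM in T1. Csf1r, the receptor that macrophages need to survive, averaged 3.45 RPKM in T2 and 1.30 RPKM in MZ, and of the 6 only Marco was at 0 in any library (2 of 16). Emr1, Hmox1, Vcam1 and Marco were also highest in T2, whereas Cd68 was highest in MZ, with 8.99 RPKM against 6.49 RPKM in T2. The part of macrophage RNA in the values of the C1q genes and Fcna was not tested.

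Among 7 tested receptors, MZ against T2 called only Cd93, the AA4 sort marker, in both genotypes (-3.65 ± 0.33 in KO and -4.03 ± 0.33 in WT). In that comparison, 9.44% of all tested genes were called in KO and 10.6% in WT. Itgax, the alpha chain of complement receptor 4, was higher in MZ than in FO in WT (1.12 ± 0.33, limma, adjusted p = 0.0348) and in T2 than in T1 in WT (1.40 ± 0.33, adjusted p = 0.0227), at levels of at most 1.94 RPKM. In KO these values were 1.00 ± 0.33 for MZ against FO (adjusted p = 0.0546) and 0.33 ± 0.33 for T2 against T1 (adjusted p = 0.591), and neither was called. C5ar2, a C5a receptor, gave -0.73 ± 0.26 in KO and -1.11 ± 0.26 in WT for MZ against T2 and was not called. The KO value missed on adjusted p (0.0633) and on fold, and the WT value (adjusted p = 0.00900) only because no compared group averaged over 1 RPKM. Of the 2 other regulators tested, Cd59b is described above, and Cd46, which in the mouse is known mainly from the sperm acrosome, had 1.25 to 1.81 RPKM in MZ and 1.67 to 3.33 RPKM in T2 and was not called.

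Of the membrane and signalling partners, 7 were tested. Cd81, a tetraspanin of the B-cell surface, rose in MZ against T2 by 1.06 ± 0.13 in KO (limma, adjusted p = 0.000189) and by 1.36 ± 0.13 in WT (adjusted p = 3.42e-05), with 108 to 134 RPKM in MZ and 49.6 to 60.4 RPKM in T2. Cd9, a tetraspanin long used as a marker of MZ B-cells, rose by 4.38 ± 0.50 in KO (adjusted p = 0.000127) and by 4.89 ± 0.50 in WT (adjusted p = 5.57e-05), with 47.1 to 59.1 RPKM in MZ and 1.33 to 2.12 RPKM in T2. Pik3cd, the catalytic subunit of PI3K delta, was lower in MZ than in FO by nearly the same amount in both genotypes, at -1.03 ± 0.13 in KO (adjusted p = 0.000333), which was called, and -0.98 ± 0.13 in WT (adjusted p = 0.000444), which missed the fold criterion, with 36.4 to 47.9 RPKM in MZ and 84.6 to 92.2 RPKM in FO over both genotypes. In MZ against T2, Pik3cd passed on adjusted p alone, at -0.82 ± 0.13 in KO (adjusted p = 0.00139) and -0.63 ± 0.13 in WT (adjusted p = 0.00536). Over the 7 tested partners, 2 were called higher and 0 lower in MZ against T2 in each genotype, where 9.44% of all tested genes were called in KO and 10.6% in WT. Of the 7, 4 lay below 0 in each genotype, with medians of -0.23 in KO and -0.10 in WT beside 0.03 and 0.01 over all tested genes.

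**Figure D5:**
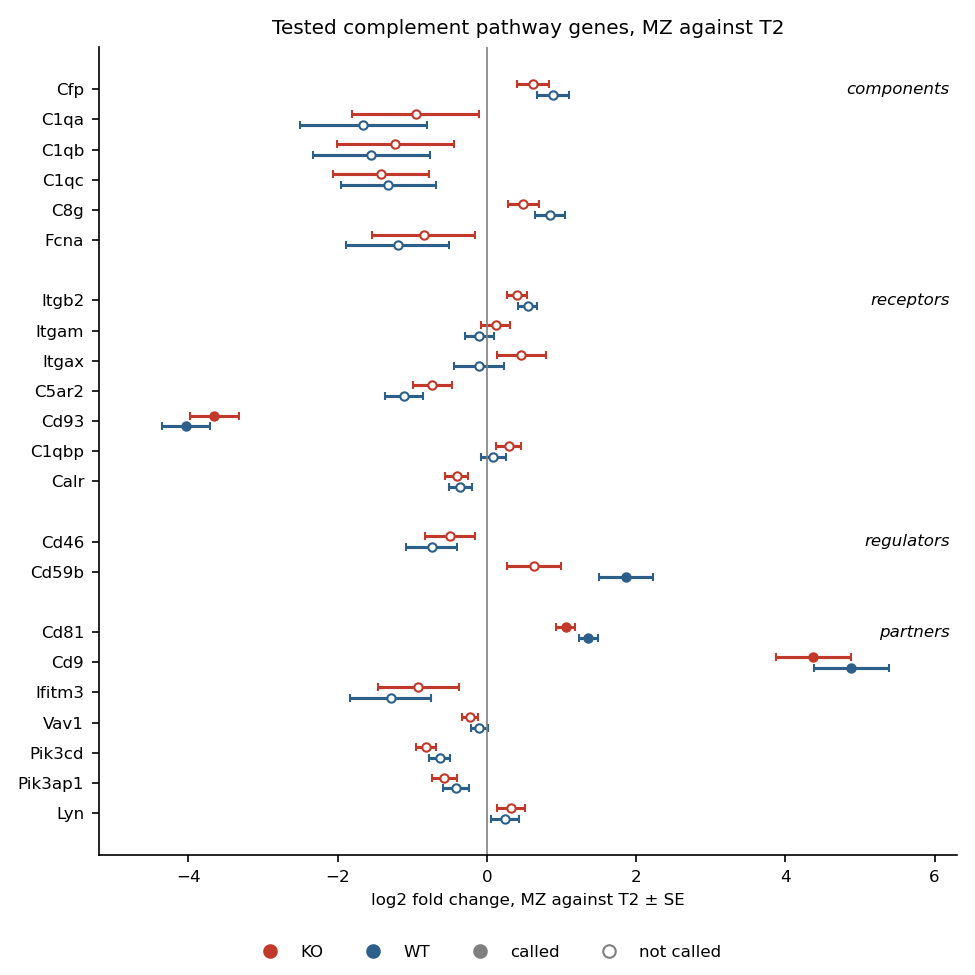
Log2 fold change in MZ against T2 (x axis, with its SE) of the 22 tested pathway genes by list, with KO above WT and filled points for called genes. Cd9 (4.38 in KO, 4.89 in WT) and Cd81 (1.06 in KO, 1.36 in WT) lie to the right, Cd93 (-3.65 in KO, -4.03 in WT) to the left, and Cd59b was called in WT (1.86).

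The genes whose pattern over the 16 libraries was most like that of each member were found by Pearson's r on log2(RPKM + 0.5), as a description. Subset differences dominate such a correlation. For Cd55 they were Arhgef3 (r = 0.992), a guanine nucleotide exchange factor, Cd200 (r = 0.990), an inhibitory membrane ligand, and Gmfg (r = 0.989). Cd200 averaged 3.40 RPKM in MZ and 24.8 RPKM in T2, and Arhgef3 25.6 RPKM in MZ and 91.7 RPKM in T2. For Cd59a they were Cd59b (r = 0.977), Plau (r = 0.924) and Gm15523 (r = 0.920). For Cr2, beside its own second row, they were Nlrc3 (r = 0.995), Dennd2d (r = 0.987) and Mgat4a (r = 0.985), each with its highest level in MZ, where Nlrc3 averaged 22.0 RPKM against 6.71 RPKM in T2. For Cr1l they were Creb1 (r = 0.959), Bnip3l (r = 0.950) and Strbp (r = 0.949), each with its lowest level in MZ.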

How the data were processed

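RNA-Seq libraries (TruSeq, single-end reads) of 16 sorted samples were used. The authors removed low-quality and adapter reads, aligned the rest to mm10 (GRCm38) with TopHat allowing 2 mismatches, kept uniquely aligned reads and deposited RPKM values per gene, replicates apart. Their own tests modelled read counts, which were not used here. The TopHat version is not given in the sources used here. Steps between low RPKM values gave back whole reads for all 23194 rows above 0 (tolerance 0.01 of a read). The exon length of GENCODE M21 fitted 13395 rows and another length 9799. As an alternative, limma-voom was run on those reads.

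The test was limma 3.58.1 (R 4.3.3) on log2(RPKM + 0.5), in 1 model of the 8 groups with a variance trend, on 12507 rows with a group mean above 1 RPKM, with Benjamini-Hochberg adjustment within each of 15 comparisons. Calls needed 3 criteria, which were a mean above 1 RPKM in a compared group, a log2 fold change larger than 1 in size, and an adjusted p below 0.05. The genotype difference of a change had no fold criterion. Python 3.11.15, scipy 1.17.1, pandas 2.3.3 and Biopython 1.88 were used for the rest. Read ratios have exact binomial 95% intervals. Limma p-values rest on the spread between the 2 replicates of a group, which the study calls biological. That spread was pooled over the 8 groups and moderated across the tested genes. A group whose replicates lie far apart, as KO MZ does for Cd59a, is thus judged by the spread of all 8 groups. The fit was tested on simulated data.

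The members, gene lists and motifs were chosen with earlier results of these data known. Named genes are the members, their paralogs, the 3 tested genes most like each member, up to 6 called genes of each pathway list and the sort marker genes. Fos, Jun, Egr1, C3, C5ar2, Cd46, the C1q genes, Fcna, Igj and Ly6g were named after their values were seen. A gene of the partner and B-cell marker lists is not reported here and was left out of their counts. Alternatives were a pseudocount of 0.1 or 1, no filter, median-ratio scaling, quantile normalization, a replicate block (also within genotype, added later), fewer libraries, no fold criterion and leaving out each library in turn.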

Additional observations from a re-analysis of the deposited data

How the results depend on the processing

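Of 1157 alternative values of the members, 1149 stayed on their side of the threshold, 8 passed it only under an alternative, and none lost a call. The sign changed in 67 of the 1149, none of them called in either setting, and 60 of these came from leaving out a library. By size, the farthest from 0 was Cd59a in MZ against FO in KO, which was 1.13 with all libraries and -0.04 without KO MZ replicate 2, and the others were at 0.32 or less in size with all libraries. Without KO MZ replicate 2, the count of member rows called in KO against WT in MZ was 1 (Cd59a) instead of 0, and over all libraries left out in turn that count ranged from 0 to 1. The values that passed only under an alternative were Cd55 in T2 against T1 (quantile normalization, no fold criterion), Cr1l in MZ against T2 in WT (no fold criterion) and Cd59a (libraries left out), all given above. Over all alternatives, Cd59a in MZ against T2 ranged from 0.06 to 3.50 in KO and from 2.15 to 6.02 in WT, while Cd55 ranged from -2.49 to -2.32 in KO and from -2.64 to -2.17 in WT. With the replicate number as a block, no member call changed: 3 rows in KO and 4 rows in WT were called in MZ against T2, and 0 in KO against WT in MZ. Deviations of same-numbered samples correlated at 0.190 to 0.445 within KO (6 pairs of groups), at 0.076 to 0.453 within WT (6 pairs) and at -0.361 to 0.300 across genotypes (16 pairs). No label ties the numbers to an animal or day, so the numbers were not taken as pairing samples. A block within each genotype, chosen after these correlations were seen and run for the comparisons between subsets, also changed no member call, with 3 rows called in KO and 4 in WT in MZ against T2. Scaling moved the median of all tested genes by less than 0.1 on the log2 scale. The mean over the 4 subsets could not be run on fewer groups, and the genotype differences have no fold criterion to drop. Depth limits Cd59a, Cd59b and Cd55b, whose values outside MZ or in all libraries rest on few reads.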
